A study of Rattus norvegicus with 6 samples.

Results

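The 10 genes described here encode enzymes and helpers that crosslink collagen and bring it to its mature form, and all 10 were found among the 19828 entries of the day 56 expression table. They were picked by name for their role, at a time when earlier results of these data were known. Of these, 8 stood in the table under their own symbol (Lox, Loxl1, Loxl2, Loxl3, Plod1, Plod2, Serpinh1 and Pcolce). Leprel2 stood under its current symbol P3h3, and Plod3 shared an entry with the microRNA gene Mir702, so its value cannot be split from reads of that gene. All 10 passed the filter on low values, with an estimated 104 to 12799 reads behind each single value.

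Collagen is made in the endoplasmic reticulum as a procollagen of intertwined chains. There, prolyl and lysyl residues are hydroxylated and chaperones hold the helix. After secretion the end pieces are clipped off, the molecules assemble into fibrils, and lysyl oxidases convert lysine and hydroxylysine side chains to aldehydes that react into covalent crosslinks. The same oxidases crosslink elastin, and stiffening of the vessel wall by crosslinked matrix is a known feature of pulmonary hypertension.

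The study measured total lung from Sprague-Dawley rats with bulk RNA-seq, 1 library per sample. There were 3 wild-type (WT) libraries and 3 libraries of rats lacking the aryl hydrocarbon receptor (genotype label Ahr-KO, written Ahr-/- in the series' design). Every rat in both groups had the Sugen-Hypoxia treatment, a VEGF receptor blocker combined with low oxygen that models pulmonary arterial hypertension, and all were sampled at day 56. The comparison therefore asks how the Ahr genotype was related to these genes under this treatment, and rats without the treatment were not analysed here. The sources used here do not give age, sex, the position of the Ahr edit or whether each sample was 1 animal. The p-values therefore reflect sample-to-sample spread alone, part of which may be technical.

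Values are normalised read counts, estimated to rest on 12.9 to 23.6 M (mega) reads per library, with the fewest reads in the libraries numbered 2 (12.9 M in WT and 14.2 M in Ahr-KO). They are not divided by gene length, so levels of different genes are not compared. Ahr itself was read at 2860.4 to 3395 in WT and at 2399 to 3923 in Ahr-KO, which does not check the genotype because the edited part is not known. Its target Cyp1a1, a cytochrome P450, was at 23512 to 37694 in WT and at 0.826 to 10.5 in Ahr-KO. Of 8 lung epithelial markers all were tested, with a summed value of 723469 to 729956 in WT and 876908 to 939851 in Ahr-KO. Such a sum, here and for other lists, is set mainly by the genes with the highest values. Among the macrophage markers, Marco was listed at 0 in all 6 libraries.

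In the Ahr-KO lungs 4 of the 10 genes fell and none rose. They were the lysyl oxidase family genes Loxl1 and Loxl2, the lysyl hydroxylase gene Plod2 and the procollagen processing enhancer gene Pcolce. Across all 15386 tested genes the same test called 10.8% in either direction and 6.26% as lower (Benjamini-Hochberg adjusted p under 0.05 from limma-trend), with 4.5% called as higher. At an unadjusted p under 0.05 the 10 genes gave 5, against 27.9% of all. The 3 values of one group lay clear of the 3 of the other for 6 of the 10, against 34.3% of all tested genes, and lower in Ahr-KO for 5, against 17.4%. The median log2 fold change of the 10 was -0.16, beside 0.0085 over all tested genes. Fewer matrix-producing cells and less RNA per cell cannot be told apart in bulk tissue. Each log2 fold change sets Ahr-KO over WT after log2(value + 1) transformation and is given ± SE with n = 3 libraries per group, and means are given ± SD. Without both libraries numbered 2, 2 of the 10 were called, Loxl1 and Pcolce. Loxl1 and Pcolce were also the 2 called in each fit that left out library 0 or 1 of WT, or library 1 or 2 of Ahr-KO.

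**Figure D1:**
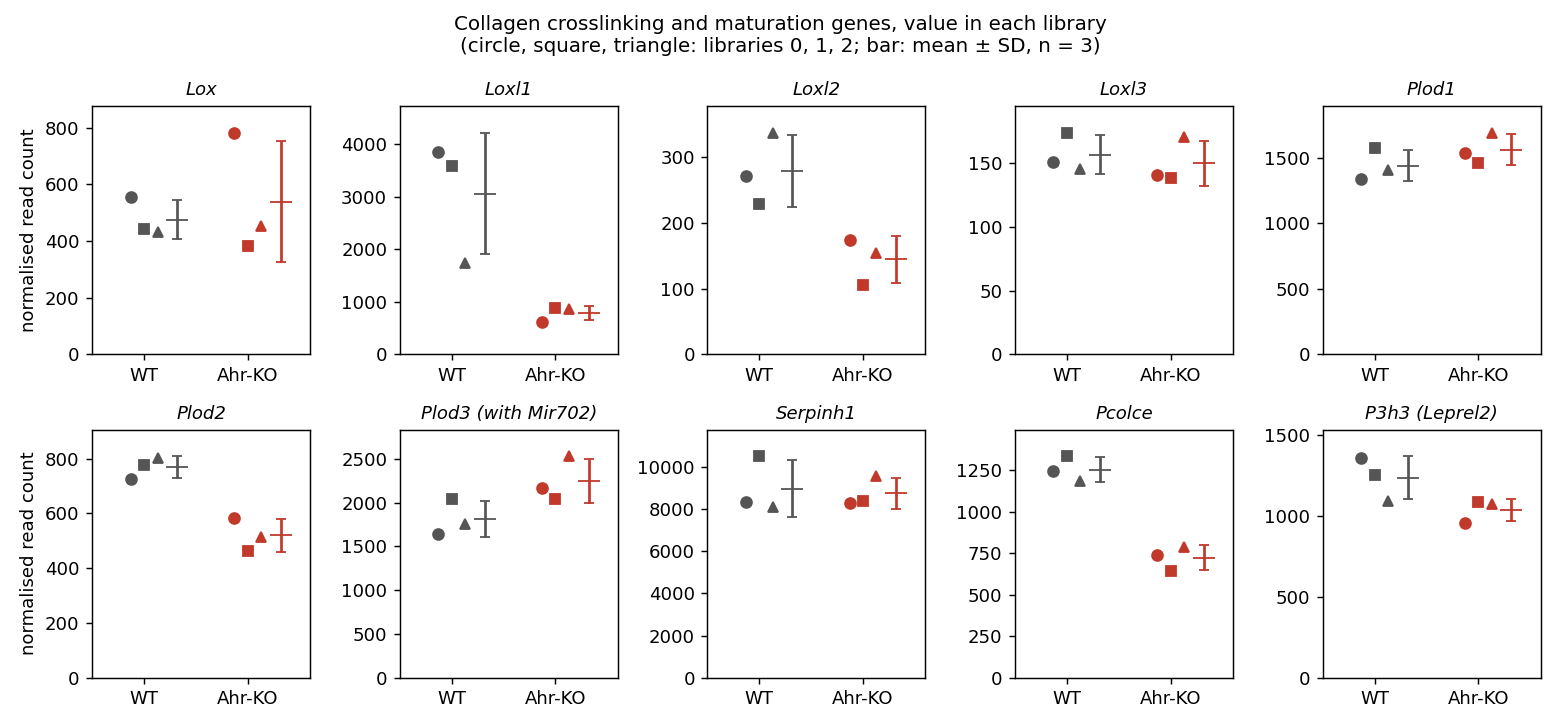
Normalised read count of each of the 10 genes in each library, WT in grey and Ahr-KO in red, with circle, square and triangle for libraries 0, 1 and 2 and a bar for the mean ± SD (n = 3). The Ahr-KO values of Loxl1, Loxl2, Plod2 and Pcolce lie below all WT values, while those of Lox, Loxl3, Plod1 and Serpinh1 overlap with WT.

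Among the lysyl oxidases, the copper enzymes that form the crosslinks, Loxl1 fell most. Loxl1 is needed for elastic fibre renewal. Its value was 3862, 3594 and 1732 in WT libraries 0, 1 and 2 and 623.8, 875.2 and 855.3 in the Ahr-KO libraries. WT library 2 stood well under the other WT libraries, yet every Ahr-KO value was lower still. The group means were 3062 ± 1160.1 and 784.8 ± 140 (n = 3 each), and the log2 fold change was -1.89 ± 0.30 with a 95% interval of -2.58 to -1.21, a 3.72-fold lower level (limma-trend adjusted p = 0.011). The call held in each of the 6 fits that left out 1 library, with log2 values of -2.26 to -1.68 and a highest adjusted p of 0.0497 without Ahr-KO library 2.

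Loxl2, which oxidises the type IV collagen of basement membranes and is also known as a hypoxia-induced gene, was the other oxidase that fell. It was at 271.9, 228.3 and 337.1 in WT and at 174.1, 105 and 154.1 in Ahr-KO, so the groups did not overlap. The log2 fold change was -0.96 ± 0.23 (95% interval -1.49 to -0.42), a 1.94-fold lower level, with an adjusted p of 0.039 by limma-trend. This call was less firm than that of Loxl1. The adjusted p was 0.0933, 0.054 and 0.0691 without WT library 0, 1 or 2 and 0.0998 and 0.105 without Ahr-KO library 1 or 2, and the call was kept only without Ahr-KO library 0 (0.0367). It also missed the threshold after quantile normalisation (0.0525) and in limma without the trend (0.0755).

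Lox, the founding member of the family and the main oxidase of fibrillar collagen, did not pass the test. Its values were 553.5, 441.9 and 430.9 in WT and 781.7, 383.5 and 451.5 in Ahr-KO. Ahr-KO library 0 had the highest value of all 6, while the other Ahr-KO libraries stood within or under the WT range. The log2 fold change was 0.12 ± 0.25 (95% interval -0.47 to 0.71, adjusted p = 0.80 by limma-trend), and -0.18 without Ahr-KO library 0. Loxl3, a relative with scavenger receptor domains, was at 150.9, 174.1 and 145.5 in WT and at 141, 138.8 and 170.5 in Ahr-KO, with overlapping groups. Its log2 fold change was -0.065 ± 0.16 with a 95% interval of -0.45 to 0.32, and its sign turned after quantile normalisation (0.059) and without WT library 1 (0.012).

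The remaining oxidase, Loxl4, is not among the 10 but was listed with the processing genes, and it rose. It was at 308.9, 300.6 and 311.9 in WT and at 499.7, 556.2 and 693 in Ahr-KO. All Ahr-KO values lay above all WT values, and the log2 fold change was 0.91 ± 0.14, a 1.88-fold higher level (limma-trend adjusted p = 0.01), kept in each of the 6 fits without 1 library. The family thus held 2 genes that fell, 1 that rose and 2 that did not pass.

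The lysyl hydroxylases prepare the lysines that are later crosslinked. Plod2 hydroxylates the telopeptides at the chain ends, which sets the type of crosslink. Plod1 acts on the helical part, and Plod3 also adds glucose to hydroxylysine that carries galactose. Plod2 fell, from 725.7, 776.9 and 804.3 in WT to 583.5, 461.2 and 515.6 in Ahr-KO, and no Ahr-KO value reached the WT range. The log2 fold change was -0.57 ± 0.12 (95% interval -0.84 to -0.30), a 1.48-fold lower level with an adjusted p of 0.023 by limma-trend. Its adjusted p was 0.0553 and 0.07 without WT library 0 or 1 and 0.083 and 0.0852 without Ahr-KO library 1 or 2. Limma without the trend gave 0.0546.

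Plod1 was at 1343.5, 1574 and 1406 in WT and at 1539, 1462 and 1693 in Ahr-KO. Its groups overlapped, with a log2 fold change of 0.12 ± 0.10 (95% interval -0.11 to 0.35, adjusted p = 0.49 by limma-trend). The entry of Plod3 was at 1641, 2037 and 1751 in WT and at 2166, 2043 and 2530.2 in Ahr-KO. Each Ahr-KO value was above each WT value, by a narrow margin between WT library 1 and Ahr-KO library 1, but the difference did not pass over all genes (log2 0.31 ± 0.12, 95% interval 0.038 to 0.59, adjusted p = 0.13 by limma-trend).

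Pcolce and Serpinh1 act before the crosslinks form. Pcolce encodes an extracellular glycoprotein that binds the procollagen C-propeptide and speeds its removal, and it had the lowest p of the 10. It was at 1243.6, 1333 and 1182 in WT and at 740.7, 642.1 and 785.8 in Ahr-KO. The groups were far apart relative to their spread, 1253 ± 75.8 against 722.9 ± 73.4 (n = 3 each). The log2 fold change was -0.80 ± 0.11 (95% interval -1.04 to -0.55), a 1.74-fold lower level with an adjusted p of 0.0071 by limma-trend, and the call held in each of the 6 fits without 1 library (highest adjusted p 0.0297). Bmp1, the protease whose cut Pcolce enhances, rose from 4132, 4521 and 3799 to 5703, 6236 and 8087. That was a log2 fold change of 0.67 ± 0.14 (adjusted p = 0.024 by limma-trend), lost on leaving out library 0 of WT, or 1 or 2 of Ahr-KO (adjusted p at most 0.0691). The call of Bmp1 also ended in limma without the trend (adjusted p = 0.0693), under the replicate block (0.0581) and without both libraries numbered 2 (0.0590). The rise of the protease was thus less firm than the fall of its enhancer.

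Serpinh1 encodes HSP47, the collagen-specific chaperone of the endoplasmic reticulum. It was at 8323, 10511 and 8099 in WT and at 8284, 8385 and 9576 in Ahr-KO. The groups overlapped fully, with a log2 fold change of -0.030 ± 0.12 and a 95% interval of -0.32 to 0.26, and the sign turned without WT library 1 (0.088) and without Ahr-KO library 0 (0.0074). P3h3, whose product works together with Plod1 in lysyl hydroxylation, was at 1359.5, 1252 and 1094 in WT and at 958.3, 1083 and 1072 in Ahr-KO. All its Ahr-KO values were under the WT values, with WT library 2 closest to them. The difference did not pass (log2 -0.25 ± 0.11, 95% interval -0.50 to 0.0062, adjusted p = 0.19 by limma-trend).

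**Figure D2:**
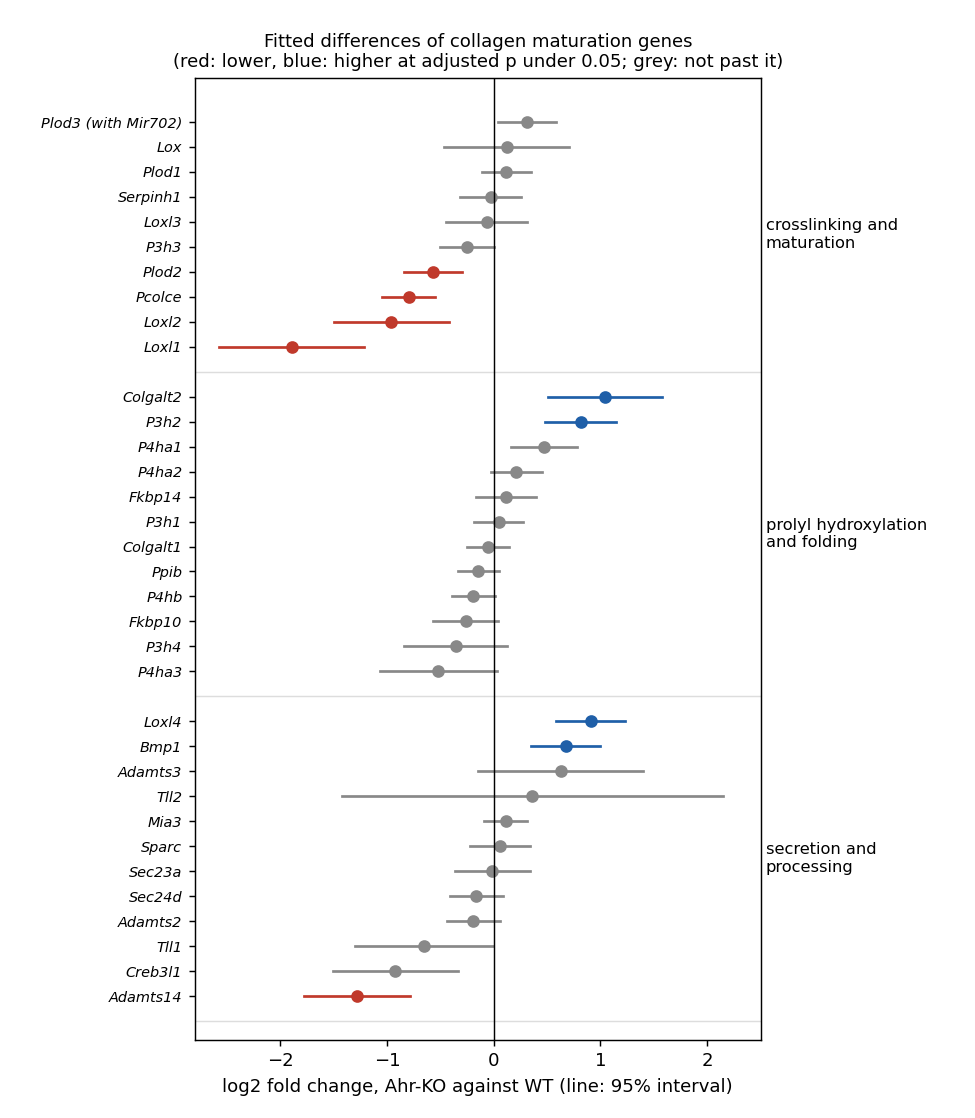
Log2 fold change, Ahr-KO against WT, with its 95% interval for the 10 genes and for 2 lists of their pathway, red where lower and blue where higher at adjusted p under 0.05. Loxl1 stands lowest of the 10 at -1.89, and Loxl4, Bmp1, P3h2 and Colgalt2 are the pathway genes that were higher.

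Ratios of 2 genes within a library do not depend on how the libraries were scaled, and 10 such ratios were formed. The pairs were chosen with earlier results known, and most set a gene that fell beside one that did not pass or rose, so their separation was largely built in by the choice and is given as a description. In all 10 the values of the 2 groups did not overlap, and each gave p = 0.1 in the 2-sided exact permutation test over 3 against 3 samples, the smallest p it can give (0.1 also after Benjamini-Hochberg adjustment over the 10). None can therefore pass a threshold of 0.05. Since levels are not per length, only the change of a ratio between groups can be read. A ratio also carries the call of either gene alone.

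Within the hydroxylases, the ratio of Plod2 to Plod1 was 0.541, 0.494 and 0.572 in WT libraries 0, 1 and 2 and 0.379, 0.316 and 0.305 in Ahr-KO, a 1.61-fold lower ratio. Plod2 to Plod3 was 1.84-fold lower. Telopeptide and helical hydroxylase transcripts thus stood in a different proportion in each Ahr-KO library than in any WT library. Within the oxidases, Loxl1 to Lox was 6.97, 8.12 and 4.01 in WT and 0.798, 2.28 and 1.89 in Ahr-KO, a 4.04-fold lower ratio, lowest in the library with the highest Lox value. Loxl2 to Lox was 2.11-fold lower. Pcolce to Bmp1 varied little within WT (0.301, 0.295 and 0.311) and was 0.130, 0.103 and 0.0973 in Ahr-KO, a 2.77-fold lower ratio.

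Set against a substrate, the genes went different ways. Col1a1, a chain of type I collagen, fell from 9507 ± 1545 to 3639 ± 379 (limma-trend adjusted p = 0.0034), more than any of the 10 genes except Loxl1 on the log2 scale (-1.38 ± 0.14). Of the 10 tested fibrillar chains 4 fell. Col1a2, the other type I chain, overlapped between groups and did not pass (log2 -1.79, adjusted p = 0.16 by limma-trend). Col5a1 and Col5a2 did not pass either (log2 -0.11 and -0.065, limma-trend adjusted p = 0.70 and 0.73). Each ratio therefore holds for the chain named and not for collagen in general. Serpinh1 to Col1a1 was 0.792, 1.02 and 1.05 in WT and 2.03, 2.41 and 2.84 in Ahr-KO, a 2.54-fold higher ratio. Lox to Col1a1 was 2.82-fold higher, Plod2 to Col1a1 1.75-fold higher and Lox to Col3a1 1.71-fold higher. Loxl1 to Eln, the elastin gene, was 0.157, 0.191 and 0.168 in WT and 0.0668, 0.0896 and 0.107 in Ahr-KO, a 1.98-fold lower ratio. In WT library 2, where Loxl1 was low, Eln was low as well (10305 against 24664 and 18849 in WT libraries 0 and 1), and the WT ratios lay close together.

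**Figure D3:**
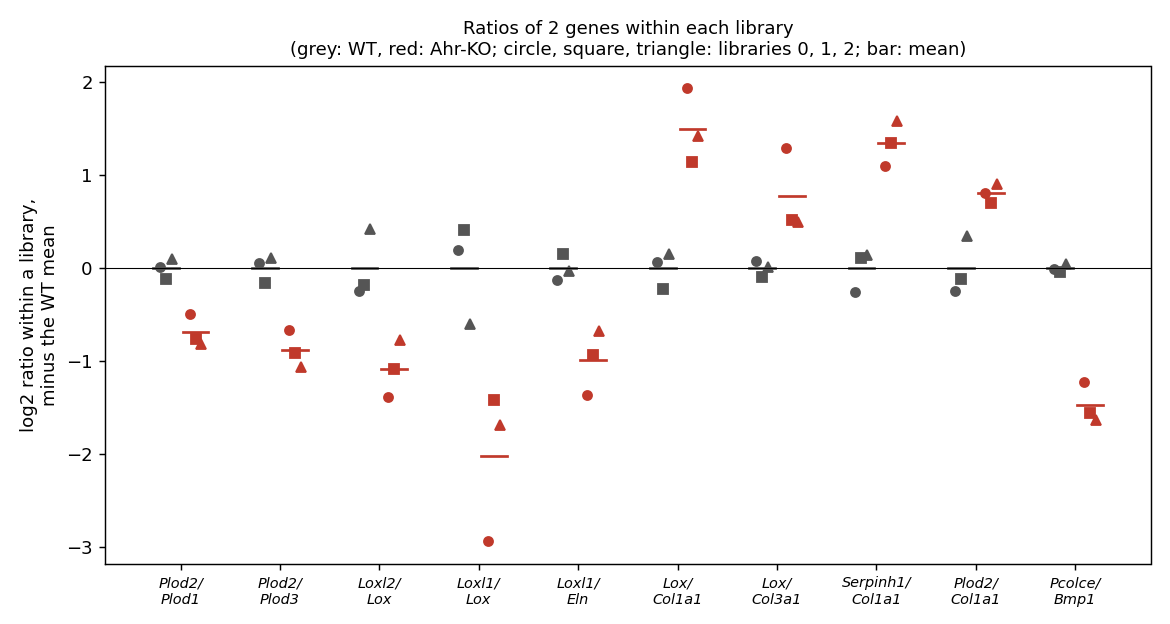
Log2 ratio of 2 genes within each library after subtracting the WT mean of that ratio, WT in grey and Ahr-KO in red. All 3 Ahr-KO values lie on one side of the WT values for each of the 10 ratios, below for the first 5 and for Pcolce to Bmp1, above for the 4 ratios to Col1a1 or Col3a1.

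Other steps of the pathway were listed separately. Of 12 tested genes for prolyl hydroxylation and folding, 2 rose, none fell and 10 did not pass, with a median log2 fold change of -0.0026. P3h2, a prolyl 3-hydroxylase, rose from 398.9, 470.6 and 437.8 to 664.1, 733.9 and 924.9 (log2 0.82 ± 0.14, adjusted p = 0.015 by limma-trend, lost at no more than 0.0527 without Ahr-KO library 1 or 2). Colgalt2, a collagen galactosyltransferase, rose from 399.7 ± 126 to 802.9 ± 112 (log2 1.05 ± 0.23, adjusted p = 0.029 by limma-trend, up to 0.109 without Ahr-KO library 1 or 2). The prolyl 4-hydroxylase gene P4ha1 was at 1396 ± 233 in WT and 1923 ± 172 in Ahr-KO and did not pass (adjusted p = 0.063 by limma-trend). Crtap, the partner of prolyl 3-hydroxylase 1, was read at 0 to 1.36 in all libraries and was not tested.

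Of 12 tested genes for secretion and propeptide processing, 2 rose, 1 fell and 9 did not pass, with a median log2 fold change of 0.022. Those that rose were Bmp1 and Loxl4, of which Loxl4 is a lysyl oxidase that was only placed in this list. Adamts14, a protease that removes the N-propeptide, fell from 245 ± 31.9 to 102 ± 24.6 (log2 -1.28 ± 0.22, adjusted p = 0.013 by limma-trend) and kept its call in each fit without 1 library.

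The substrates of these enzymes were listed as well. Of 10 tested fibrillar collagen chains 4 fell and none rose, with a median log2 fold change of -0.79. They were Col1a1, Col3a1 (log2 -0.65 ± 0.13, adjusted p = 0.02, lost on leaving out library 0 or 1 of WT, or 1 or 2 of Ahr-KO, reaching 0.0749), Col5a3 (log2 -1.94 ± 0.23, adjusted p = 0.0053) and Col11a1, all by limma-trend. Col11a1 was at 30, 20.5 and 25.2 in WT and at 3.22 in Ahr-KO library 0, and was listed at 0 in the other Ahr-KO libraries. Of 12 elastic fibre genes 6 fell and none rose (median log2 -0.65), among them the latent TGF-beta binding gene Ltbp2 (log2 -0.81 ± 0.11, adjusted p = 0.0078 by limma-trend) and the fibulin genes Fbln1, Fbln2 and Fbln5. Fbln5 binds Loxl1 and guides it to elastin, and was 2769 ± 340 in WT and 1700 ± 25.5 in Ahr-KO (adjusted p = 0.0096 by limma-trend). Fbln2 lost its call without Ahr-KO library 2 (0.0566). Eln itself was 17940 ± 7223 in WT and 9037 ± 930.4 in Ahr-KO and did not pass (adjusted p = 0.083 by limma-trend).

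TGF-beta is known to induce several of the 10 genes. Of 12 tested TGF-beta ligands and targets 6 fell, none rose and 6 did not pass (median log2 -0.78). The ligand genes Tgfb1 (1438 ± 206 against 706.4 ± 7.37, adjusted p = 0.0051) and Tgfb3 (769.5 ± 116 against 400.2 ± 21.4, adjusted p = 0.0078) fell by limma-trend. Both calls held in all 6 fits without 1 library. Of 14 hypoxia targets, a group that shares its transcription factor with Lox, Loxl2 and Plod2, 2 fell, none rose and 12 did not pass (median log2 -0.28). These were the glucose transporter gene Slc2a1 (log2 -0.40, adjusted p = 0.03) and the glycolysis gene Pgk1 (log2 -0.30, adjusted p = 0.046), both by limma-trend. Leaving out 1 library ended the call of Slc2a1 in 4 of 6 fits (those without library 0 or 1 of WT, or 1 or 2 of Ahr-KO, reaching 0.114) and that of Pgk1 in 5 (all but that without WT library 2, highest 0.145). Whether TGF-beta or hypoxia signalling had a part in the falls among the 10 genes was not tested.

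Markers of cell types were read as well, though which cells made these enzymes was not measured. Of 12 tested fibroblast markers 3 fell and none rose (median log2 -0.63), and their summed value was 22830 to 26788 in WT and 16759 to 22896 in Ahr-KO. The adventitial fibroblast markers Col14a1 (875.2 ± 99.7 against 315 ± 78.6, adjusted p = 0.0054) and Pi16 (adjusted p = 0.02) and the fibulin gene Fbln7 (adjusted p = 0.0062) were those that fell by limma-trend, and Pi16 dropped out without library 0 of WT or library 1 or 2 of Ahr-KO (highest 0.0679). Of 7 tested myofibroblast markers 4 fell and none rose (median log2 -0.97), with summed values of 16377 to 17592 in WT and 13672 to 18205 in Ahr-KO. They were Adam12, Cthrc1, Tnc and Fap, of which only Adam12 kept its call in each fit without 1 library (286 ± 77.0 against 92.3 ± 8.66, adjusted p = 0.0071 by limma-trend). Cthrc1 lost it without WT library 0 or Ahr-KO library 2, Tnc without WT library 0 or Ahr-KO library 1, and Fap without any library but WT library 0. Acta2, Postn and Itga11 were tested and did not pass (log2 -0.16, -0.021 and -0.0022, limma-trend adjusted p from 0.668 to 0.998). Most of the summed myofibroblast value came from Postn and Acta2 (WT means of 9188 and 6398). Aspn, also a myofibroblast marker, was read at 0 to 1.36 and not tested.

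Smooth muscle and pericyte markers had 0 of 8 and 0 of 8 past the limma-trend threshold (3 and 1 at an unadjusted p under 0.05). Smooth muscle markers had a median log2 of 0.43, with summed values of 19341 to 27940 in WT and 28123 to 43836 in Ahr-KO, and pericyte markers a median of -0.072, with sums of 8393 to 10832 and 9169 to 10844. Of 8 mesothelial markers 1 rose, 1 fell and 6 had a log2 fold change below 0 (median -0.34). The summed value was higher in Ahr-KO (7162 to 9402 against 11579 to 13549), and most of it came from Krt19, a keratin that epithelium also makes, which rose from 4920.3, 5971 and 4718 to 9207, 10245 and 10683. Of 8 lymphocyte markers 7 fell (sums of 2570.5 to 3048 and 986.8 to 1368) and of 7 macrophage markers 3 fell (sums of 15557 to 18637 and 9622 to 15622). Of 8 endothelial markers 2 rose (Pecam1 and Tek) and 1 fell (Emcn), with sums of 72261 to 81433 in WT and 90999.8 to 104685 in Ahr-KO. Without Ahr-KO library 1 neither rise was called, with an adjusted p of 0.0752 for Pecam1 and 0.0588 for Tek by limma-trend. Over the 17 alternatives Pecam1 lost its call in 12, Emcn in 8 and Tek in 2. Of 8 epithelial markers 2 rose (Hopx and Ager) and 1 fell (Foxj1), and Ager lost its call in 7 of the 17, Foxj1 in 6 and Hopx in none. Of 7 skeletal muscle markers 1 fell. Cartilage markers had 0 of 5 past the threshold (0 at an unadjusted p under 0.05), and Matn1 and Cnmd were listed at 0 in all libraries. What part changes in cell numbers had in the falls of Loxl1, Loxl2, Plod2 and Pcolce was not tested.

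**Figure D4:**
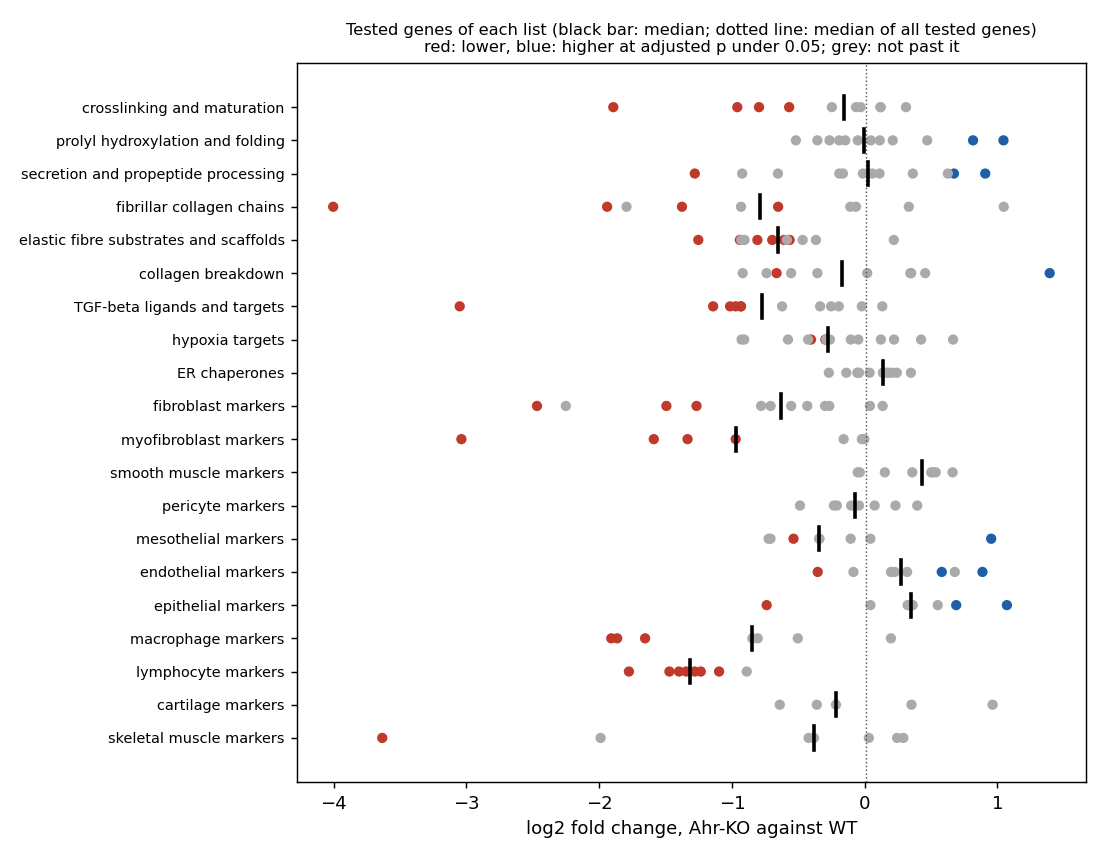
Log2 fold change of each tested gene of each list, with the median as a black bar and the median of all tested genes (0.0085) as a dotted line. The 10 crosslinking and maturation genes spread from -1.89 to 0.31 with a median of -0.16, while the fibrillar collagen chains have a median of -0.79.

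Promoter sequences were looked at because AHR binds DNA directly, but direct action of AHR on these genes was not tested. RefSeq promoters (build GRCr8, 250 bases before to 50 after the start) were matched for 8 of the 10 genes, and Lox and Loxl2 were not among them. Only the first promoter listed for each gene was used, so other start sites were not searched. They were searched on both strands for GCGTG, the core that AHR and its partner bind and that is also 1 form of the hypoxia response core, and for ACGTG, the other form. The strand-reversed forms read CACGC and CACGT. Of all 33469 promoters of this length, 29.7% held GCGTG, 19.3% held ACGTG and 41.6% held either. The 3 promoters of genes that fell are printed 5′ to 3′ on the gene's strand, in lower case with each match in capitals, because they show how differently the 3 are built.

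Loxl1, chr8:67612175-67612474, minus strand, no match:
Loxl1: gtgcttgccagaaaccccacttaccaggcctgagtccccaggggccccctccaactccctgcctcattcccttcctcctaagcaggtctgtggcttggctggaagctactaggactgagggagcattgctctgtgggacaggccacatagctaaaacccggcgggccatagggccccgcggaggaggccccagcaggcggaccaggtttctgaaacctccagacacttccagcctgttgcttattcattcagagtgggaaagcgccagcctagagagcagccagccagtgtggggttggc
Plod2, chr8:101964068-101964367, plus strand, 4 matches:
Plod2: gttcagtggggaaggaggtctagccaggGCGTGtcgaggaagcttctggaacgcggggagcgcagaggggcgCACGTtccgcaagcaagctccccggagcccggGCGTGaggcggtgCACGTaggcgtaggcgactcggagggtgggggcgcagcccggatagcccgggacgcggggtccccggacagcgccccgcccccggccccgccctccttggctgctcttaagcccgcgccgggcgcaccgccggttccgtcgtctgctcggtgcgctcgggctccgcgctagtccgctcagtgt
Pcolce, chr12:24720722-24721021, plus strand, 1 match:
Pcolce: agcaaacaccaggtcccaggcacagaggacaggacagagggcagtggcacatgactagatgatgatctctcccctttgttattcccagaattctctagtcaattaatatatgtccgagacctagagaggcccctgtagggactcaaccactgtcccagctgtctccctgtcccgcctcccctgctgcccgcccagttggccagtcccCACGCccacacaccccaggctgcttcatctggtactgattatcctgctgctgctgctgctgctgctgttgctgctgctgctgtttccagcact

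The Plod2 promoter held GCGTG at 222 and 146 bases before the start and the reversed form of ACGTG at 178 and 133 bases before it, and it was the richest in G and C (73.7%). The Pcolce promoter (56.7% G and C) held 1 reversed GCGTG at 43 bases before the start. The promoter of Loxl1, which had the largest fall of the 10 genes, held neither (61.0% G and C). Among the genes that did not pass, Loxl3 and Plod1 held 1 GCGTG each and Plod3 held 2, while Serpinh1 and P3h3 held neither. In all, 5 of the 8 held a match, and the longer form TTGCGTG, found in 1.17% of all promoters, was in none of the 8. These matches describe letters in a short window and are not shown to be bound sites.

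The settings of the analysis separated the 4 genes that fell into 2 pairs. Loxl1 and Pcolce stayed under an adjusted p of 0.05 in all 17 alternatives of the limma fit, with highest values of 0.0497 and 0.0313. Plod2 was kept in 10 of 17 and Loxl2 in 9 of 17, with highest values of 0.0994 and 0.138. The sign of each of the 4 was the same in every one of the 17. Plod3 and P3h3 passed in none of the 17, with lowest values of 0.109 and 0.066.

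**Figure D5:**
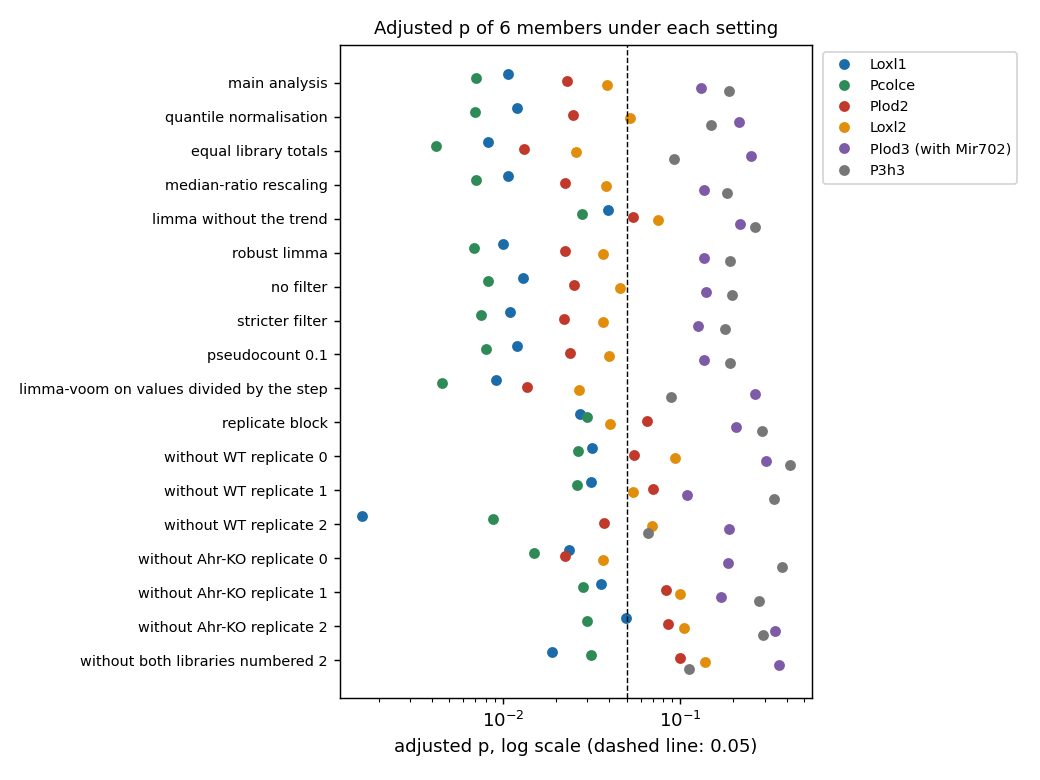
Adjusted p (log scale) of 6 of the genes under the main analysis and 17 alternatives, with a dashed line at 0.05. Loxl1 and Pcolce lie left of the line throughout, Plod2 and Loxl2 lie on either side of it, and Plod3 and P3h3 lie right of it.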

How the data were processed

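Total lung RNA of 3 WT and 3 Ahr-KO samples was sequenced, 1 library each. The build rn6 and FastQC come from the labels, per the submitters' processing notes. Aligner, counter, annotation and strandedness: not given in the sources used here. For each gene symbol and library the authors deposited 1 normalised signal, a scaled read count. Of the values above 0, 97.4% to 97.9% lay within 0.05 of whole multiples of a recurring step, as estimated reads divided by 1 factor would. The rest were fractions, so no count test was used in place of the one for normalised values. Columns name the group and a number from 0 to 2 that matches no single sample, and 0 value columns were unused.

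Values were transformed to log2(value + 1), the 15386 entries reaching 1 in 3 or more libraries were retained, and limma 3.58.1 (R 4.3.3) was fitted with genotype and a mean-variance trend. Tests were 2-sided, with Benjamini-Hochberg adjustment across every retained entry. The procedure was tested on simulated data with 200 changed genes. It found 55% of 2-fold and 77% of 4-fold changes, and 5.04% of its calls were false. A gene that did not pass may therefore still differ between the groups. The lowest chi-square per gene between 2 libraries was 15.4, so every pair of libraries differed by more than sampling noise.

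The 10 genes, the gene lists and the ratios were chosen with earlier results of these data known. Named were the 10 genes, Ahr and Cyp1a1, and from each list up to 4 genes past the threshold with the lowest p, or the 1 with the lowest p where none passed. Genes of the ratios, P4ha1, genes listed near 0, and the myofibroblast markers Acta2, Postn and Itga11 were named beside these. The same holds for the collagen chains Col1a2, Col5a1 and Col5a2. The genes near 0, these chains and these myofibroblast markers were named after their values were seen. A gene that the rule names is not reported here. Alternatives were other scalings, filters, pseudocounts and limma settings, limma-voom, a replicate block, and fits without 1 or both libraries numbered 2 or without each library. Median-ratio rescaling was chosen after seeing the data.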

Additional observations from a re-analysis of the deposited data

How the results depend on the processing

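Of the 10 genes, 4 were called in the main analysis and 2 in limma without the trend and without both libraries numbered 2; leaving out each library gave 2 to 4. Over all genes, 1655 were called, against 952 in limma without the trend, 553 without both libraries numbered 2, 2853 at an adjusted p under 0.10, and 407 to 1834 when 1 library was left out. Of all calls 41.8% were higher, 25.5% with equal library totals, 25.3% with limma-voom, 31.6% without the trend and 32.9% to 50.7% without 1 library. The replicate block gave 899 calls and 3 of the 10 genes, with Plod2 at 0.0653. Same-numbered libraries did not deviate together (correlations of -0.10, 0.07 and -0.07). With 3 libraries per group, these values cannot show whether the numbers pair the samples. Both libraries numbered 2 had the fewest estimated reads. Signs of log2 fold changes that had not passed turned for Lox without Ahr-KO library 0 (range without 1 library -0.18 to 0.33), Loxl3 without WT library 1 (-0.16 to 0.012) and after quantile normalisation (0.059), and Serpinh1 without WT library 1 or Ahr-KO library 0 (-0.100 to 0.088). That of Ahr turned without Ahr-KO library 1 (-0.061 to 0.29), after quantile normalisation (-0.0123), with equal library totals (-0.0121) and with limma-voom (-0.012). The causes were not tested. Among other genes named, limma without the trend also ended the calls of Colgalt2, Timp3, Slc2a1, Pgk1, Pi16, Tnc, Emcn, Pecam1, Foxj1 and Ager. The replicate block ended those of Colgalt2, Timp3, Slc2a1, Pgk1, Cthrc1, Fap, Emcn and Pecam1. Leaving out both libraries numbered 2 ended those of P3h2, Colgalt2, Col3a1, Col11a1, Fbln2, Col14a1, Slc2a1, Pgk1, Pi16, Cthrc1, Fap, Emcn, Pecam1, Foxj1 and Ager. Pgk1 was also lost in robust limma and Fap with a pseudocount of 0.1. Quantile normalisation ended the calls of Pecam1 and Ager. Pecam1 was also lost with equal library totals, with no filter and with limma-voom. TMM rescaling and the edgeR count test were not run, since some values are not whole reads. Depth limits Loxl3 and Loxl2 most, with 104 to 212 and 113 to 278 estimated reads per library.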

Other observations

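Genes that break collagen down and chaperones that fold secreted proteins were also listed. Of 10 tested collagen breakdown genes, 1 rose and 1 fell, with a median log2 fold change of -0.17. Timp3, an inhibitor of matrix metalloproteinases, was at 3997, 5720 and 8946 in WT and at 19365, 13726 and 13980 in Ahr-KO, and it rose with a log2 fold change of 1.39 ± 0.28 (limma-trend adjusted p = 0.02). Its relative Timp1 fell from 848.3 ± 111 to 532.7 ± 25.1 (adjusted p = 0.015 by limma-trend). Both calls ended without Ahr-KO library 1 or 2, and Timp3 also without WT library 1 (highest adjusted p 0.074 for Timp3 and 0.0619 for Timp1). Of 12 general chaperones of the endoplasmic reticulum, 0 passed the limma-trend threshold (1 at an unadjusted p under 0.05). Hsp90b1 had the lowest p, at 11436 ± 1093 in WT and 14530 ± 654 in Ahr-KO (adjusted p = 0.07 by limma-trend).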
